A study of Mus musculus with 8 samples.

Results

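The 39 Hox genes of mouse clusters A to D were followed in ribosome-bound RNA that had been purified from UCP1-positive fat cells of 3 adipose depots. They were taken by name, as every gene symbol that consists of Hoxa, Hoxb, Hoxc or Hoxd and a number, and they make up 39 of the 22552 genes listed for each library. HoxA holds 11 of them, HoxB 10, HoxC 9 and HoxD 9. The groups were 3 libraries from inguinal white adipose tissue (inguinal WAT, the fat pad under the skin of the groin), 2 from perigonadal white adipose tissue (perigonadal WAT, the abdominal pad beside the gonads) and 3 from interscapular brown adipose tissue (BAT, between the shoulder blades). The donors were females at 6 weeks of age, and the labels give the strain C57B/6 UCP1-TRAP. The animals had been bred at 30 °C, kept at room temperature once weaned at 3 weeks, and held at 4 °C for the last 2 weeks, so no group was free of cold exposure. UCP1 is the uncoupling protein with which brown and beige adipocytes make heat, and TRAP is translating ribosome affinity purification, which relies on a GFP tag on the ribosomes of marked cells. Here a rabbit antibody against GFP pulled the tagged ribosomes and their RNA out of whole dissected tissue, and no library of unbound RNA was used here. Whether each library had its own animals is not labelled, and the p-values below may therefore reflect technical spread only.

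Hox genes encode homeodomain transcription factors that give cells their position along the body axis. The genes of a cluster lie in the order in which they are used, from low paralog numbers, which act towards the head, to high ones, which act towards the tail and, above all in the A and D clusters, in the limbs and the genital tract. Genes with the same number in different clusters are paralogs that descend from 1 ancestral gene. Adult connective tissue and fat keep much of the Hox pattern of the region in which they formed, and fat pads are known to differ in the Hox genes they use.

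Values are FPKM, fragment numbers divided by the length of the transcript and the size of the library, and can be compared between genes. Hox transcripts were rare in all 8 libraries. Their FPKM summed to 15.5, 14.0 and 7.09 in inguinal WAT, 46.3 and 17.6 in perigonadal WAT, and 7.95, 7.46 and 5.88 in BAT. These sums rest on about 64.4, 54.9 and 28.3 fragments in inguinal WAT, 248.2 and 74.0 in perigonadal WAT, and 24, 27 and 24 in BAT. Whole libraries held an estimated 286358 fragments (inguinal replicate 3) to 1207807 (perigonadal replicate 1). The library with the highest Hox sum was thus also the deepest, and after median-ratio scaling between libraries the sums were 12.8, 12.3 and 13.02 in inguinal WAT, 25.6 and 15.2 in perigonadal WAT, and 8.57, 8.24 and 6.64 in BAT. On either scale perigonadal replicate 1 stood apart from replicate 2, and both white depots lay above BAT, except that deposited FPKM put inguinal replicate 3 within the BAT range. In bulk RNA, fewer cells that use a gene and less RNA per cell cannot be told apart.

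The results turn on Hoxa5, Hoxa10 and Hoxc10, and their sequences are shown for what sets them apart. Hoxa5 and Hoxa10 stand in 1 cluster and differed between depots in different ways, so the 250 bases before their transcription starts are given, from RefSeq promoters of build GRCm38, all on the minus strand, 5′ to 3′, with each CpG dinucleotide in capitals. Hoxa10 has an internal start, called proximal here (chr6:52234940-52235189), and a distal start further upstream (chr6:52240855-52241104), while Hoxa5 has 1 entry (chr6:52204588-52204837).
Hoxa5: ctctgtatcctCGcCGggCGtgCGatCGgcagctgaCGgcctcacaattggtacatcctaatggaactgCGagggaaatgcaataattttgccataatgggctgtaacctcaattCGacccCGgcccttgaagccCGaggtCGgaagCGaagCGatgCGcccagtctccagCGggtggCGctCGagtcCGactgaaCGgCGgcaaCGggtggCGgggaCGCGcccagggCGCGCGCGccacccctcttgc
Hoxa10 proximal: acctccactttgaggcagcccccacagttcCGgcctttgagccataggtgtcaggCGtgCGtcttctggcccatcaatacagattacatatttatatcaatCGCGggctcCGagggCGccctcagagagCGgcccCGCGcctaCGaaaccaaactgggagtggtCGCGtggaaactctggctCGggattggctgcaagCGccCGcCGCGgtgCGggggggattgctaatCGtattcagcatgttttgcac
Hoxa10 distal: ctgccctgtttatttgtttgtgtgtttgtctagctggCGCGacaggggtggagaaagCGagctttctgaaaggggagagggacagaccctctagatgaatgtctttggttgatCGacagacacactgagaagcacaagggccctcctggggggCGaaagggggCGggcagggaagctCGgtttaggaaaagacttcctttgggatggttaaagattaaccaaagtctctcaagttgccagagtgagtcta
The Hoxa5 window holds 28 CpG, the proximal Hoxa10 window 20 and the distal one 7, against a median of 12.5 over 24 Hox promoters and of 6 over 32851 mouse promoters. Letters of the Pbx-Hox composite site (TGATTNAT, where N is any base), the Meis site (TGACAG) and the caudal site (TTTATG) were searched on both strands, each on its own. They occur in 2.8, 15.9 and 10.8 percent of all promoters of this length and in 2, 2 and 5 of the 24 Hox promoters, and in none of the 3 windows shown. That these letters are missing says nothing about binding of those factors.

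Hoxa10 and Hoxc10 are paralogs from different clusters, and a read from the part they share could be given to the wrong gene. Their homeobox, the 180 bases that encode the DNA-binding homeodomain, is therefore printed beside that of Hoxa5, from GENCODE M21 transcripts (GRCm38). Capitals mark bases 142 to 159, which encode the core of the helix that reads the DNA. The Hoxa5 homeobox lies at chr6:52202632-52202811 and the Hoxa10 homeobox at chr6:52232554-52232733, both on the minus strand, and the Hoxc10 homeobox lies at chr15:102970848-102971027 on the plus strand, each within 1 exon.
Hoxa5: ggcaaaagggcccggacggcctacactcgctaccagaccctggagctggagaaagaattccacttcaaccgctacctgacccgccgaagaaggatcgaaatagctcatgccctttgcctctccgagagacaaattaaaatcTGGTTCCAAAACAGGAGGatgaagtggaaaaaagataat
Hoxa10: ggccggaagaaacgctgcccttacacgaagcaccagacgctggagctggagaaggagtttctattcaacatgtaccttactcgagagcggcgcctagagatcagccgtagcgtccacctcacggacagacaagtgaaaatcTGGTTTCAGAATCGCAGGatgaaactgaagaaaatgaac
Hoxc10: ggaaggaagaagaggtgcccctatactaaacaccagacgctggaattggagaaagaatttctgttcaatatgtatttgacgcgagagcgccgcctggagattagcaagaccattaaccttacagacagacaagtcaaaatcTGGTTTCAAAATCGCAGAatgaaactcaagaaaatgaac
The Hoxa10 and Hoxc10 homeoboxes are identical at 80.6 percent of bases, which is the median over the 42 pairs of Hox genes with the same paralog number, against a median of 60.6 percent over the 699 pairs with different numbers. Hoxa5 matches Hoxa10 at 61.7 and Hoxc10 at 60.6 percent of bases. Over whole transcripts, the longest run of bases shared with any other Hox gene was 32 bases for Hoxa5, 21 for Hoxa10 and 23 for Hoxc10. Among all 9 genes tested below, the longest such run ranged from 17 bases (Hoxb13) to 47 (Hoxa7, with Hoxa6). The read length is not given in the sources used here, so the share of reads that could be misplaced was not tested.

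A gene entered the test when at least 2 libraries had an FPKM of at least 1, and 9 Hox genes did: Hoxa5, Hoxa7, Hoxa9, Hoxa10, Hoxb13, Hoxc6, Hoxc8, Hoxc10 and Hoxd8. A gene that reached this level only in WAT, as Hoxa7, Hoxa9, Hoxa10, Hoxc8 and Hoxc10 did, could hardly be called lower there. Counts and medians over the 9 are therefore descriptions. Of the other 30, 8 were listed at 0 in all 8 libraries (among them Hoxc12, Hoxd10, Hoxd11, Hoxd12 and Hoxd13), 9 stayed below 0.5 FPKM in all of them (Hoxa2, Hoxa13, Hoxb3, Hoxb5, Hoxb7, Hoxb8, Hoxb9, Hoxc4 and Hoxc11) and 13 reached 0.5 FPKM in some library. At least 1 fragment was found for 23 Hox genes in inguinal WAT, 28 in perigonadal WAT and 15 in BAT, where depth differed as given above. HoxA gave 7 of its 11 genes in inguinal WAT, 10 in perigonadal WAT and 6 in BAT, and HoxC gave 8 of 9, 7 and 3. HoxB and HoxD were thinly covered, with 1 tested gene each.

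**Figure D1:**
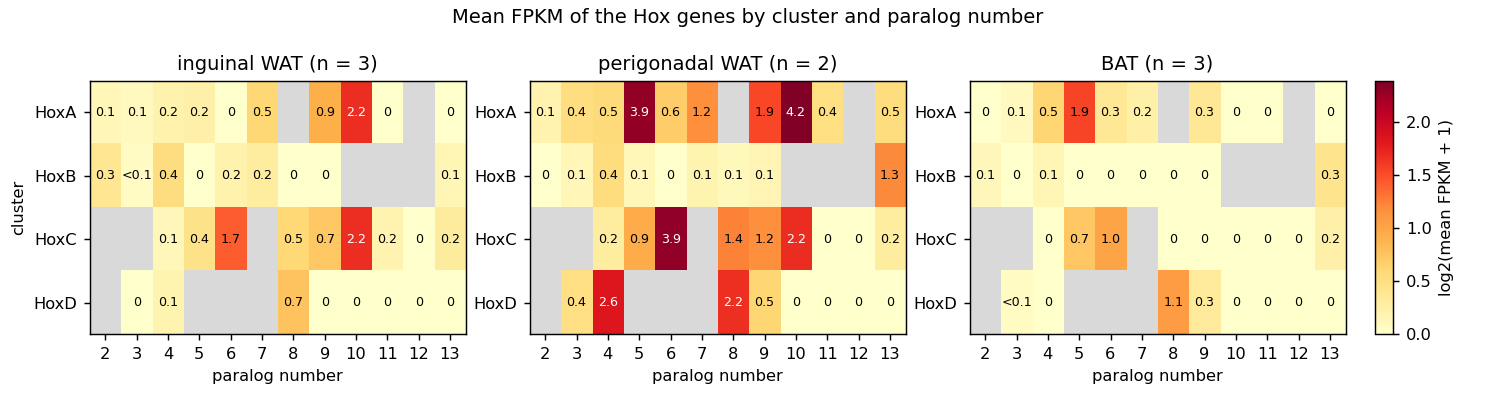
Mean FPKM of the Hox genes of paralog groups 2 to 13 (the number in each cell, coloured by log2 of the mean plus 1) by cluster, from top to bottom, and paralog number, from left to right, in inguinal WAT (n = 3), perigonadal WAT (n = 2) and BAT (n = 3). Grey cells are positions at which a mouse cluster has no gene, and the column of paralog 10 is filled for HoxA and HoxC in both white depots and at 0 in BAT.

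Genes of paralog groups 9 to 13, the tail end of the clusters, took a larger share of the Hox FPKM in the white depots than in BAT. Their share of the summed Hox FPKM was 44.8, 57.9 and 60.8 percent in inguinal WAT, 35.9 and 49.4 percent in perigonadal WAT, and 6.88, 21.3 and 18.9 percent in BAT. The lowest WAT library stood above the highest BAT library. Paralog groups 4 to 8 took 48.6, 38.0 and 39.2 percent in inguinal WAT, 60.5 and 47.6 percent in perigonadal WAT, and 89.6, 78.7 and 75.7 percent in BAT. Groups 1 to 3, which pattern the hindbrain and neck, had at most 6.59 percent in any library. A score over the chosen members gets no test, and the BAT share of groups 9 to 13 rests on 2, 6 and 5 fragments in replicates 1, 2 and 3. By cluster, HoxC gave 43.9, 48.8 and 57.6 percent of the Hox FPKM in inguinal WAT, 35.5 and 21.9 percent in perigonadal WAT, and 18.4, 30.4 and 30.6 percent in BAT.

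**Figure D2:**
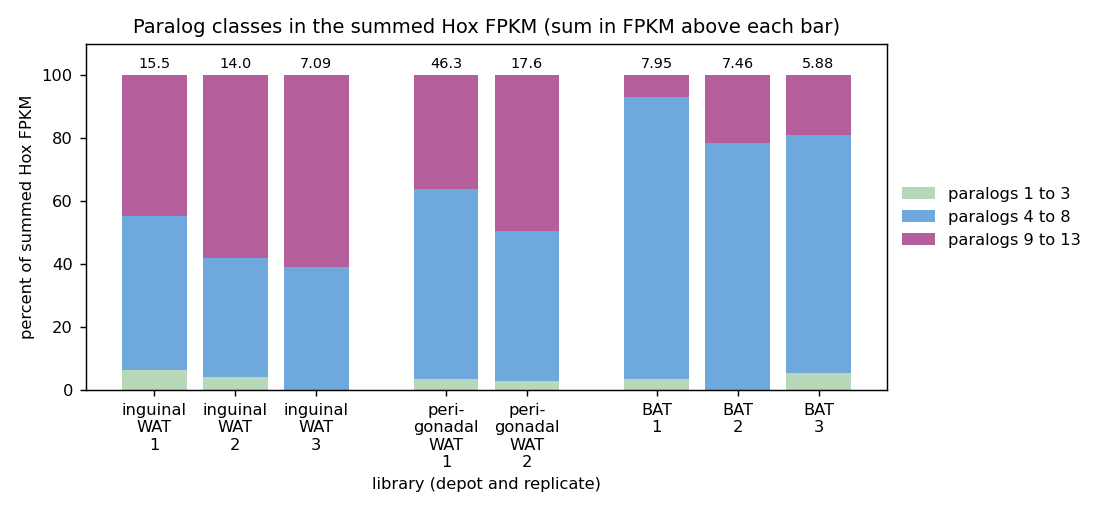
Percent of the summed Hox FPKM that falls on paralog groups 1 to 3, 4 to 8 and 9 to 13 (stacked colours) in each library, with the summed Hox FPKM above each bar. Groups 9 to 13 hold between 35.9 and 60.8 percent in the 5 WAT libraries and between 6.88 and 21.3 percent in the 3 BAT libraries.

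Both Hox genes of paralog group 10 that were found, Hoxa10 and Hoxc10, were higher in either white depot than in BAT. Hoxa10 (mm9, chr6:52181196-52190853), which acts in patterning of the hindlimb and uterus, had 2.46, 2.95 and 1.17 FPKM in inguinal WAT and 5.16 and 3.31 FPKM in perigonadal WAT, while every BAT library listed it at 0. All WAT libraries had the gene, from about 5.33 fragments in inguinal replicate 3 to 29.7 in perigonadal replicate 1. Against a floor of 3 fragments over the 3 BAT libraries, which covers counting error only, it was at least 8.73-fold higher in inguinal WAT. In perigonadal WAT it was at least 16.8-fold higher. Without the highest library of the depot, these bounds were 7.22-fold and 13.2-fold. Bounds over this floor, here and below, hold for deposited FPKM only. Median-ratio scaling lowers perigonadal values and raises BAT values, so perigonadal bounds would be smaller, and none were computed on that scale. On the log2(FPKM + 1) scale Hoxa10 was higher by 1.63 in inguinal WAT than in BAT (SE 0.38, adjusted p = 0.00396, limma over all genes) and by 2.37 in perigonadal WAT (SE 0.42, adjusted p = 5.11e-05). Both calls held after median-ratio scaling, with differences of 1.70 (adjusted p = 0.00127) and 1.95 (adjusted p = 0.00143), and after leaving out each library in turn. Between inguinal and perigonadal WAT its log2 difference was -0.73 (SE 0.42, adjusted p = 0.406).

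The deposited values also divide Hoxa10 between its starts. The transcript from the distal start, whose window above holds 7 CpG, took 100, 84.4 and 69.5 percent of the Hoxa10 FPKM in inguinal WAT, and 85.3 and 86.9 percent in perigonadal WAT. It was the larger part in each of the 5 WAT libraries. Cufflinks assigns shared fragments by a model, and with 5.33 to 29.7 fragments a library this split is imprecise.

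Hoxc10 (mm9, chr15:102797227-102802328), the paralog of Hoxa10 in cluster C, which takes part in patterning of the lumbar spinal cord and hindlimb, followed the same order of WAT over BAT. It had 2.08, 2.56 and 1.91 FPKM in inguinal WAT and 3.08 and 1.34 FPKM in perigonadal WAT, while every BAT library listed it at 0. The values stand for 9, 11 and 8 fragments in inguinal WAT, and 17 and 6 in perigonadal WAT. The inguinal libraries lay between both perigonadal libraries in deposited FPKM, and above both after median-ratio scaling. In deposited FPKM, Hoxc10 was at least 8.68-fold higher in inguinal WAT and at least 8.80-fold higher in perigonadal WAT than the BAT floor of 3 fragments. Without perigonadal replicate 1 it was at least 5.33-fold higher in perigonadal WAT. The log2 difference from BAT was 1.66 in inguinal WAT (SE 0.37, adjusted p = 0.00246) and 1.63 in perigonadal WAT (SE 0.42, adjusted p = 0.00844), and 1.77 (adjusted p = 0.00330) and 1.27 (adjusted p = 0.0248) after median-ratio scaling. Without perigonadal replicate 1, where the lone replicate 2 is taken to vary like the other groups, the perigonadal difference was 1.23 and no longer passed (adjusted p = 0.504). Between inguinal and perigonadal WAT the log2 difference of Hoxc10 was 0.04 (SE 0.42, adjusted p = 0.955).

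The other genes of groups 9 to 13 were lower or less even. Hoxa9, which acts in blood cell precursors and in axial patterning, had 1.31, 1.09 and 0.285 FPKM in inguinal WAT, 2.82 and 0.973 in perigonadal WAT, and 0.318, 0 and 0.565 in BAT. Its inguinal replicate 3 fell within the BAT range, and neither depot passed against BAT (adjusted p = 0.889 for inguinal WAT and 0.112 for perigonadal WAT). Hoxc9, an untested neighbour in number that defines thoracic identity of motor neurons, had 0.555, 0.864 and 0.579 FPKM in inguinal WAT, 2.49 and 0 in perigonadal WAT, and 0 in all BAT libraries. It was at least 2.19-fold higher in inguinal WAT and at least 4.09-fold higher in perigonadal WAT than the BAT floor, and all 12 perigonadal fragments came from replicate 1. Hoxd9 was listed at 0 in inguinal WAT and had 0.565 and 0.498 FPKM in perigonadal WAT and 0.230, 0.191 and 0.372 FPKM in BAT.

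Hoxb13, the last gene of cluster B and known from the prostate and the tail end of the body, had 0, 0 and 0.367 FPKM in inguinal WAT, 1.42 and 1.21 FPKM in perigonadal WAT, and 0, 1.04 and 0 FPKM in BAT. Both perigonadal libraries exceeded all others in deposited FPKM, but after median-ratio scaling BAT replicate 2 was highest, at 1.15, against 0.784 and 1.04 in perigonadal WAT, and no comparison passed. The log2 difference of inguinal from perigonadal WAT was -1.06 (SE 0.41, adjusted p = 0.305). Hoxa11, a gene of the limbs and uterus, and Hoxa13, a gene of the limb tips and the genital tract, were found in perigonadal WAT alone, at 0.299 and 0.555 FPKM and at 0.422 and 0.481 FPKM. These are 5 and 4 fragments, from the depot that includes the deepest library. In deposited FPKM the means were 2.03 and 1.58 times the BAT floor, and 1.42 and 1.48 times without the highest library. After median-ratio scaling the perigonadal values were 0.165 and 0.478 for Hoxa11, and 0.233 and 0.415 for Hoxa13. Whether they exceed a floor on that scale was not tested. Exons of Hoxa11 overlap those of its antisense RNA Hoxa11as, which was also listed above 0 in perigonadal WAT alone (0.365 and 0.229 FPKM). The labels do not say that the reads kept their strand, so fragments of such a pair cannot be told apart. Hoxc13, a gene of hair and nails, had at most 0.538 FPKM in any library.

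**Figure D3:**
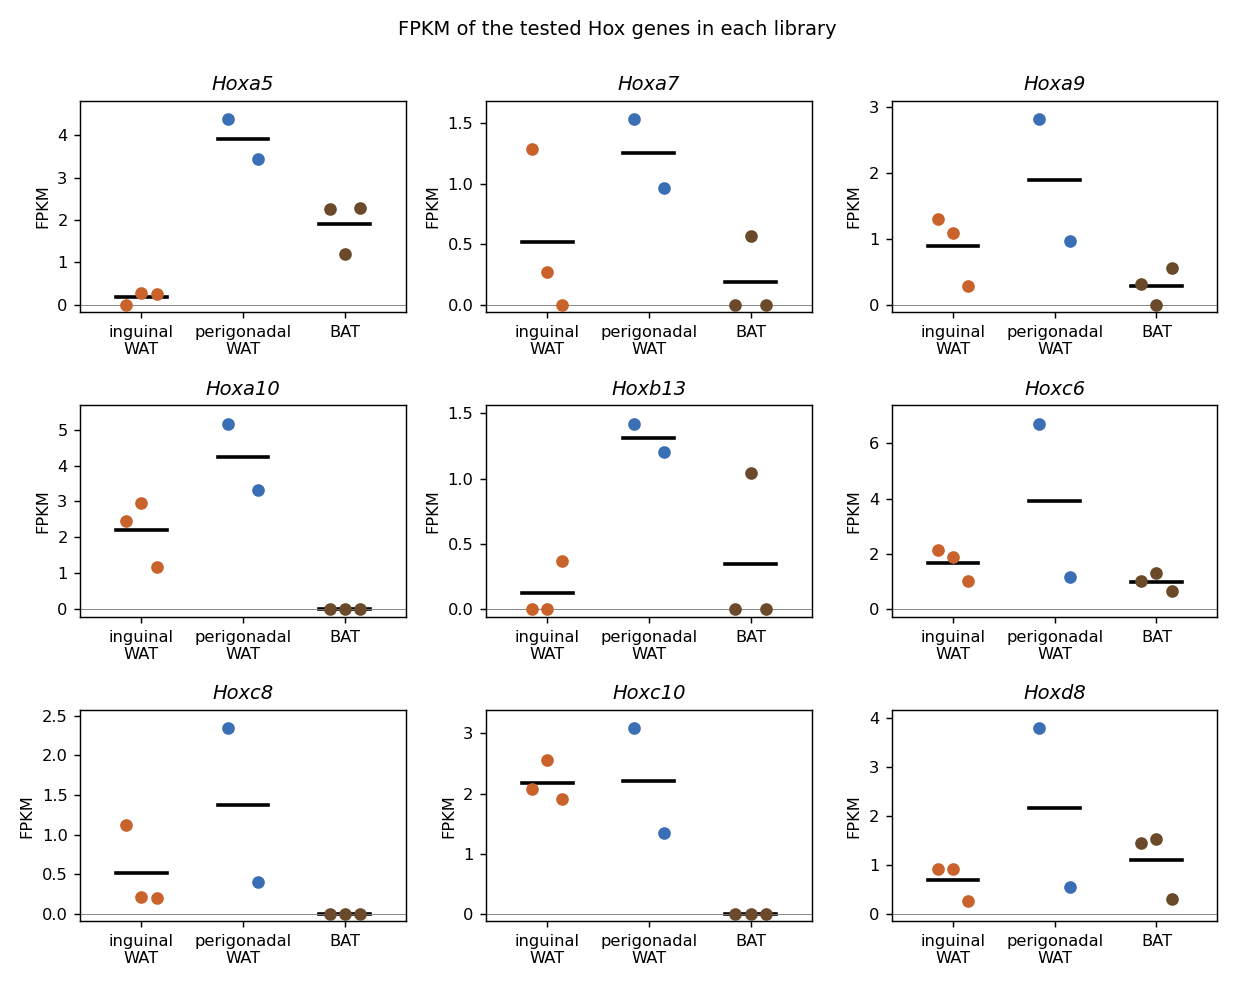
FPKM (vertical axis, a scale of its own for each gene) of the 9 tested Hox genes in inguinal WAT, perigonadal WAT and BAT, with a point for each library and a bar at the group mean (n = 3, 2 and 3). Hoxa10, Hoxc8 and Hoxc10 were listed at 0 in the 3 BAT libraries, and Hoxa5 was lowest in inguinal WAT, between 0 and 0.278 FPKM.

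Hoxa5, a gene of the neck and upper thorax needed for lung and rib development, had a different order from Hoxa10 and Hoxc10. Untested Hoxd9 had the same order of depots as Hoxa5 in deposited FPKM, at lower values. Hoxa5 had 0, 0.278 and 0.265 FPKM in inguinal WAT, 4.37 and 3.43 FPKM in perigonadal WAT, and 2.26, 1.19 and 2.29 FPKM in BAT (mm9, chr6:52151753-52154586). In deposited FPKM the groups did not overlap: inguinal WAT was lowest, with 2 fragments in all 3 libraries, perigonadal WAT was highest, with 33 fragments in 2, and BAT lay between, with 19 in 3. After median-ratio scaling inguinal WAT was still lowest (0, 0.244 and 0.486), while perigonadal WAT (2.42 and 2.96) and BAT (2.44, 1.32 and 2.58) overlapped. Hoxa5 was 2.06 lower on the log2 scale in inguinal than in perigonadal WAT (SE 0.42, adjusted p = 0.00314). This call was lost after median-ratio scaling (-1.59, adjusted p = 0.0588), without inguinal replicate 1 (adjusted p = 0.0636) and without perigonadal replicate 1 (adjusted p = 0.0768). The call between the white depots was also lost with a pseudocount of 0.1, with quantile normalization and with no filter on low values. Against BAT, Hoxa5 was lower by 1.29 in inguinal WAT (log2 difference -1.29, SE 0.37, adjusted p = 0.0453), and by 1.32 after scaling (-1.32, adjusted p = 0.0183). It was lost without inguinal replicate 1 (adjusted p = 0.218), inguinal replicate 2 (0.106), BAT replicate 1 (0.317), BAT replicate 2 (0.0719) or BAT replicate 3 (0.273). In perigonadal WAT the difference from BAT was 0.77 (SE 0.42, adjusted p = 0.264), and 0.27 after scaling (adjusted p = 0.663).

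Of the other genes of groups 4 to 8, Hoxc6, which acts in the thorax and the mammary gland, was found in all 8 libraries. It had 2.15, 1.90 and 1.02 FPKM in inguinal WAT, 6.71 and 1.16 FPKM in perigonadal WAT, and 1.04, 1.32 and 0.659 FPKM in BAT. The groups overlapped, and perigonadal replicate 1 was the only library far from the rest. Hoxc8, a gene of the lower thorax that is also known as a white fat gene, had 1.12, 0.210 and 0.206 FPKM in inguinal WAT and 2.34 and 0.397 FPKM in perigonadal WAT, while every BAT library listed it at 0. It was at least 2.29-fold higher in inguinal WAT and at least 6.11-fold higher in perigonadal WAT than the BAT floor, while its log2 differences of 0.54 and 1.11 did not pass (adjusted p = 0.869 and 0.108). Both bounds rest on replicate 1 of the depot: without it, Hoxc8 stood at 0.929 times the floor in inguinal WAT and 1.78 times in perigonadal WAT.

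Hoxd8, a trunk gene, had 0.921, 0.916 and 0.259 FPKM in inguinal WAT, 3.79 and 0.552 FPKM in perigonadal WAT, and 1.46, 1.54 and 0.303 FPKM in BAT. Its depots overlapped, and it passed in no comparison. Hoxa7 had 1.29, 0.272 and 0 FPKM in inguinal WAT, 1.53 and 0.968 FPKM in perigonadal WAT, and 0, 0.569 and 0 FPKM in BAT, again without a call. Hoxc5, listed above 0 in all 8 libraries but untested, had 0.372, 0.376 and 0.373 FPKM in inguinal WAT, 1.48 and 0.362 FPKM in perigonadal WAT, and 0.426, 0.589 and 0.966 FPKM in BAT.

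Hoxd4, a gene of the hindbrain and neck, came almost wholly from 1 library. It had 0.209, 0.216 and 0 FPKM in inguinal WAT, 4.95 and 0.196 FPKM in perigonadal WAT, and 0 in all BAT libraries. Perigonadal replicate 1 held 32 fragments of it and perigonadal replicate 2 held 1, so its bound of at least 11.4-fold over the BAT floor rests on that library. Hoxd3, the next gene of the cluster towards the low numbers, was likewise highest there, at 0.704 FPKM, against 0.121 FPKM in perigonadal replicate 2. Hoxa4 had 0.487, 0 and 0 FPKM in inguinal WAT, 0.744 and 0.211 FPKM in perigonadal WAT, and 0.861, 0.483 and 0.238 FPKM in BAT, and was found in all libraries but 2 of inguinal WAT. Hoxa6 was listed at 0 in inguinal WAT and had 0.527 and 0.684 FPKM in perigonadal WAT and 0.881, 0 and 0 FPKM in BAT. Hoxb4 reached 0.744 FPKM, in perigonadal replicate 1, and Hoxb6 was found only in inguinal replicate 3, at 0.502 FPKM.

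In groups 1 to 3, the head end, little was found. Hoxb2 had 0.714, 0.246 and 0 FPKM in inguinal WAT, was listed at 0 in perigonadal WAT, and had 0.281, 0 and 0 FPKM in BAT. Hoxa3 had at most 0.860 FPKM, in perigonadal replicate 1, and its exons overlap those of the noncoding gene 2700086A05Rik on the opposite strand.

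By limma over the 8958 genes that passed the filters, 3 of the 9 tested Hox genes were called in inguinal WAT against BAT, 2 higher and 1 lower, where 2.20 percent of all tested genes were called, 1.73 percent higher and 0.469 percent lower. In perigonadal WAT against BAT 2 of 9 were called, both higher, against 5.18 percent of all tested genes, 4.91 percent higher. In inguinal against perigonadal WAT 1 of 9 was called, lower, against 0.703 percent of all tested genes, 0.402 percent lower. After median-ratio scaling, the counts were 3, 2 and 0 of 9, against 4.69, 6.10 and 0.313 percent of all tested genes. Median log2 differences of the 9 were 0.41, 1.04 and -0.64, beside medians of 0.03, 0.52 and -0.50 over all tested genes. After scaling, the medians of the 9 were 0.41, 0.65 and -0.26, and those over all tested genes 0.01, 0.03 and -0.01. Because many of the 9 passed the filter through WAT libraries only, medians above BAT are partly built in. With no filter, the medians of the 39 Hox genes were 0, 0.19 and -0.16, beside 0, 0.08 and -0.09 over all genes. Without perigonadal replicate 1 the second count was 1 of 7, Hoxa10, against 1.24 percent. Without perigonadal replicate 2 it was 5 of 9, against 8.39 percent, and included Hoxa9, Hoxc6 and Hoxc8 (adjusted p = 0.0352, 0.00653 and 0.0172). With no filter on low values, when 21781 genes were tested, none of the calls of Hoxa5, Hoxa10 and Hoxc10 passed, and the lowest adjusted p among them was 0.0583. Both comparisons with BAT use the same BAT libraries.

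**Figure D4:**
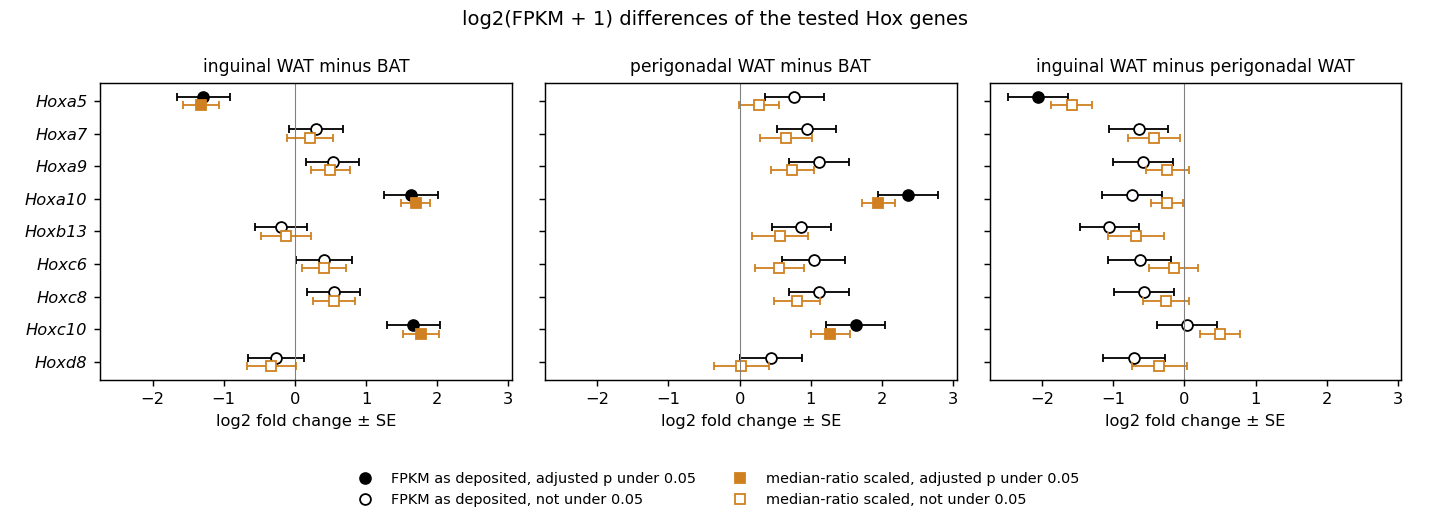
Log2 fold changes with their standard errors (horizontal axis) of the 9 tested Hox genes (rows) in 3 comparisons, from FPKM as deposited (black circles) and after median-ratio scaling (orange squares), with filled symbols for an adjusted p under 0.05. Hoxa10 and Hoxc10 are filled against BAT in both white depots on either scale, and Hoxa5 is filled against perigonadal WAT only as deposited.

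Genes beside the clusters were looked up as well, and whether they share regulation with the Hox genes was not tested. Of 24 neighbours, the 3 nearest protein-coding genes on either side of each cluster, 19 were tested. As deposited, 1 of these 19 was called in perigonadal WAT against BAT, where 5.18 percent of all tested genes were, and none in the other comparisons. It was Hnrnpa1 beside HoxC, which was higher in perigonadal WAT (log2 difference 1.63, adjusted p = 0.0155). This call was lost after median-ratio scaling (1.27, adjusted p = 0.222). On that scale Atp5g2 beside HoxC, an ATP synthase subunit gene, was lower in perigonadal WAT than in BAT (-1.25, adjusted p = 0.00713), and Cbx3 beside HoxA, a heterochromatin protein gene, was higher in inguinal WAT than in BAT (1.101, adjusted p = 0.0320). Of all tested genes, 6.10 percent were called on that scale in perigonadal WAT against BAT and 4.69 percent in inguinal WAT against BAT. The values of Hnrnpa1 were 2.03 and 3.45 FPKM in perigonadal WAT, and 0.0033 and 0.650 FPKM in BAT replicates 2 and 3. Hnrnpa1 was at or near 0 in BAT replicate 1 and also in inguinal replicate 1. Hnrnpa1 encodes an RNA-binding protein that nearly all cells use, so a value at 0 can be a failed estimate, and each Hox value of 0 is given here as listed. Evx1 and Evx2, homeobox genes at the tail ends of HoxA and HoxD, were listed at 0 in all libraries. Within the clusters, 6 miRNA hairpins were listed at 0 throughout, and the 4 longer noncoding or predicted genes had at most 0.615 FPKM.

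Partners and regulators of Hox genes showed few calls. The TALE homeodomain proteins, which bind DNA together with Hox proteins, had 6 of 9 genes tested and none called in the 3 comparisons. Pbx2, the most abundant of them, had 3.17, 3.90 and 1.57 FPKM in inguinal WAT, 5.96 and 3.11 FPKM in perigonadal WAT, and 2.45, 2.29 and 2.76 FPKM in BAT. Pknox1, another of them, had 0.602 to 1.71 FPKM. Polycomb genes, whose products keep silent Hox genes closed, had 15 of 18 tested, and trithorax genes and H3K27 demethylases, whose products keep active ones open, had 8 of 9 tested, with 0 called in any of the 3 comparisons. At an unadjusted p under 0.05, 1 TALE gene, 1 Polycomb gene and 0 trithorax or demethylase genes passed in inguinal WAT against BAT, 1 of each list passed in perigonadal WAT against BAT, and 2 TALE genes alone passed in inguinal against perigonadal WAT, where 8.53, 21.5 and 12.4 percent of all tested genes did. Among these, Rbbp4 passed in both comparisons with BAT, Mll2, a trithorax-type histone methyltransferase, in perigonadal WAT against BAT, and Meis1 and Meis2 in inguinal against perigonadal WAT. After median-ratio scaling 1 Polycomb gene, Rbbp4, a histone-binding subunit, was called higher in inguinal WAT than in BAT (log2 difference 0.84, adjusted p = 0.0477).

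Retinoic acid and caudal proteins set Hox boundaries in the embryo. Of 17 such genes 8 were tested, and the retinoid receptors Rxrb, Rxrg and Rxra were the most abundant, at 3.12 to 12.0 FPKM in all libraries. Aldh1a1, which makes retinoic acid, was higher in perigonadal WAT than in BAT, at 3.14 and 1.30 FPKM against 0.260, 0.0117 and 0.0084 FPKM (log2 difference 1.50, adjusted p = 0.0192), and this call was lost after median-ratio scaling (adjusted p = 0.0756). Cdx1, Cdx2 and Cdx4, the caudal genes, were listed at 0 in all libraries.

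Marker genes of adipocytes were looked up as well. With no library of unbound RNA to compare, their presence cannot test the purification. Adipoq, Plin1, Fabp4, Pparg and Lipe, and the brown and beige genes Ucp1, Cidea, Dio2, Cox8b and Elovl3, were found in all 8 libraries, with Ucp1 between 592.3 and 1593 FPKM. Cox8b was lower in inguinal WAT, relative to BAT (log2 difference -1.42, adjusted p = 0.000298, limma over all genes). After median-ratio scaling Cox8b and Dio2 both passed as lower in either white depot. None of the 5 brown and beige genes was called higher against BAT on either scale. Of the adipocyte genes, Plin1 and Fabp4 were higher in perigonadal WAT (adjusted p = 0.0496 and 0.0151), and neither call remained after scaling. Genes of other cell types moved with the depots too. Mammary luminal markers summed to 147, 120.0 and 112 FPKM in inguinal WAT, 3.16 and 2.58 FPKM in perigonadal WAT, and 7.02, 13.1 and 22.3 FPKM in BAT, with 10, 8 and 2 of 10 markers above 0. The BAT sums were nearly all Csn3, a milk protein gene, at 7.02, 13.1 and 22.0 FPKM. Basal and myoepithelial markers summed to 135, 64.2 and 42.4 FPKM in inguinal WAT, 8.82 and 6.02 FPKM in perigonadal WAT, and 0.065, 0.251 and 0.847 FPKM in BAT, with 8, 8 and 3 of 8 above 0. Oxtr, the oxytocin receptor gene, made up 5.49 and 3.62 FPKM of the perigonadal sums. Keratins Krt5, Krt14, Krt8 and Krt18 and the epithelial gene Epcam were listed at 0 in BAT. The part of these cells in the Hox results was not tested.

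Mesothelial markers, of the lining of the abdominal cavity, summed to 0.411, 0.815 and 0 FPKM in inguinal WAT, 15.3 and 2.21 FPKM in perigonadal WAT, and 0.154, 0 and 0 FPKM in BAT, with 1, 5 and 1 of 5 above 0. Upk3b had 8.16 and 0.933 FPKM in perigonadal WAT and, like Msln and Wt1, was listed at 0 in the other depots. Fibroblast and preadipocyte markers summed to 12.3, 6.39 and 8.54 FPKM in inguinal WAT, 58.8 and 12.5 FPKM in perigonadal WAT, and 3.08, 2.87 and 4.95 FPKM in BAT, with 5 of 5 above 0 in each depot. Perigonadal replicate 1 stood apart in both lists, as it did for Hoxc6, Hoxc8, Hoxc9, Hoxd4 and Hoxd8, and this covariation was not tested. Of 7 markers of oviduct, uterus and ovary, Pax8, Amhr2, Inha and Cyp19a1 were listed at 0 in all 8 libraries, Pgr was listed at 0 in perigonadal WAT, and Ovgp1 had 0.646 FPKM in perigonadal replicate 1 alone. Esr1, which fat also uses, had 5.41 and 0.700 FPKM in perigonadal WAT. Endothelial markers summed to at most 10.4 FPKM, in perigonadal replicate 1, and skeletal muscle markers to at most 1.93 FPKM, in BAT replicate 1. The sum of macrophage markers was also highest in perigonadal replicate 1, at 9.997 FPKM, of which Lyz2 had 7.75. Cd14 and Cd68 went the other way. Cd14 was highest in inguinal replicate 1 (3.51 FPKM, against 0.257 in perigonadal replicate 1), and Cd68 in BAT replicate 1 (0.654 against 0.434 FPKM). Cd14 was called higher in inguinal WAT than in BAT (log2 difference 1.39, adjusted p = 0.023, limma over all genes).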

How the data were processed

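RNA bound to GFP-tagged ribosomes was sequenced in 3 inguinal WAT, 2 perigonadal WAT and 3 BAT libraries, with groups and replicate numbers from the tissue labels and titles. The authors, per the submitters' processing notes (without versions), aligned reads to mouse build mm9 with TopHat and quantified them with Cufflinks. Each deposited file lists FPKM with confidence bounds for 28702 transcripts; read counts were not used here. A gene's value is the sum of the FPKM of its transcripts. Fragment numbers were recovered from FPKM and its upper bound, and 83.9 to 92.8 percent of values below 20 per library came out whole within 0.05; they are estimates, are used for depth and for floors of 3 fragments over a group, and cover counting error only. Because Cufflinks shares fragments out between similar transcripts, close paralogs and overlapping genes have uncertain values.

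The 8958 genes that reached an FPKM of 1 in 2 or more libraries, and whose longest transcript had 300 nt or more, were tested with limma 3.58.1 in R 4.3.3, with a variance trend, on log2(FPKM + 1), over all 8 libraries in 3 groups. The test was two-sided, with Benjamini-Hochberg adjustment within a comparison and calls at an adjusted p under 0.05. Differences on this scale understate changes of low genes, and those of genes listed at 0 depend on the pseudocount of 1. The fit was also run on simulated data with normal spread and added changes. That simulation did not model fragment numbers or groups listed at 0, so it does not cover the Hox genes called here. Genes were named by rule: every Hox gene past the filter or reaching 0.5 FPKM, the 3 most abundant and all called members of the other lists, and 3 neighbours on each side of a cluster. Some members of these lists are not reported here. The members and lists were chosen with earlier results of these data known. Alternatives were pseudocounts of 0.1 and 5, no filter, a minimum FPKM of 5, median-ratio scaling, quantile normalization, short genes kept, a fit of the compared groups alone, no variance trend, a replicate block, the most abundant transcript, and leaving out each library. Tables were handled in Python 3.11.15 with pandas 2.3.3 and numpy 2.4.6, and drawn with matplotlib 3.10.9. Gene positions are in mm9 as deposited, and sequences are from GRCm38 (RefSeq and GENCODE M21) with positions in that build.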

Additional observations from a re-analysis of the deposited data

Results flagged for a closer look

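Hoxa5 was the only tested Hox gene called between inguinal and perigonadal WAT, and it stood on opposite sides of BAT in them, as did the mean log2 differences of Hoxb13 and Hoxd8, which passed in no comparison. Untested Hoxd9 lay in the same order without overlap in deposited FPKM, and untested Hoxa6 and Hoxc5 did so by mean FPKM. Hoxa5 had 0, 0.278 and 0.265 FPKM in inguinal WAT, 4.37 and 3.43 FPKM in perigonadal WAT, and 2.26, 1.19 and 2.29 FPKM in BAT. In deposited FPKM all inguinal libraries thus lay below, and both perigonadal libraries above, all BAT libraries. After median-ratio scaling perigonadal WAT (2.42 and 2.96) overlapped BAT (2.44, 1.32 and 2.58). The difference of perigonadal WAT from BAT did not pass (0.77, adjusted p = 0.264, limma over all genes), nor in any of 18 alternatives. The test of the difference itself, inguinal against perigonadal WAT by limma over all genes, gave an adjusted p = 0.00314, and the alternatives gave adjusted p-values from 0.000506 to 0.0768, with 12 of 18 past the threshold.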

How the results depend on the processing

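Of 467 recomputed log2 differences of the 9 tested Hox genes, 436 kept their direction and their side of the threshold, 21 were no longer past it, 3 were newly past it and 7 changed sign. Hoxa10 was called in inguinal WAT against BAT under 16 of 18 alternatives and in perigonadal WAT against BAT under 17 of 18, Hoxc10 under 17 and 16 of 18, and Hoxa5 in inguinal WAT against BAT under 9 of 18. With no filter on low values 21781 genes were tested, and no call of Hoxa5, Hoxa10 or Hoxc10 remained (lowest adjusted p = 0.0583). With a minimum FPKM of 5 no Hox gene was left to test. The signs that changed belonged to differences that passed in no setting: Hoxb13 in inguinal WAT against BAT (0.15 without BAT replicate 2, and down to -0.36 without BAT replicate 1 or 3), Hoxd8 in perigonadal WAT against BAT (-0.13 with quantile normalization, and -0.38 without perigonadal replicate 1 to 1.251 without perigonadal replicate 2), and in inguinal against perigonadal WAT Hoxc6 (-1.545 to 0.29 with 1 library left out, above 0 without perigonadal replicate 1), Hoxd8 (-1.523 to 0.10, likewise) and Hoxc10 (with 1 library left out, -0.36 without perigonadal replicate 2, -0.05 without inguinal replicate 2, and at most 0.44, without perigonadal replicate 1). The count of Hox calls in inguinal WAT against BAT was 1 with a pseudocount of 5 and 0 with no filter. In perigonadal WAT against BAT it was 1 with no filter (Hoxa13, higher) and from 1 to 5 with 1 library left out. In inguinal against perigonadal WAT it was 0 with a pseudocount of 0.1, median-ratio scaling or quantile normalization, 2 with no filter (Hoxa13 and Hoxd9, both lower), and from 0 to 1 with 1 library left out. Over all genes, the 197 calls of inguinal WAT against BAT became 131 with a pseudocount of 0.1, 6 with no filter, 124 with a minimum of 5, 420 with median-ratio scaling, 407 with quantile normalization and 109 to 336 with 1 library left out. The 464 of perigonadal WAT against BAT became 214, 117 and 307 with the first 3 of these settings, 1079 with only the groups compared and 105 to 1326 with 1 library left out. The 63 of inguinal against perigonadal WAT became 5 and 146 with pseudocounts of 0.1 and 5, 32 with a minimum of 5, 40 with short genes kept, 28 with median-ratio scaling, 39 with quantile normalization, 34 with only the groups compared and 11 to 220 with 1 library left out. Median-ratio scaling also changed the split of these calls, to 272 higher and 148 lower (155 and 42 as deposited), 236 and 310 (440 and 24), and 28 and 0 (27 and 36). The cause of these shifts was not tested. No label says that a replicate number marks a shared animal or day, and whether the libraries are paired is unknown. With deviations from the group means, same-numbered inguinal and BAT libraries correlated at 0.126, 0.0804 and 0.1, each best with its own number, a hint from the data only, and same-numbered perigonadal and BAT libraries at -0.0136 and -0.0184. With the replicate block the calls were 280, 418 and 88 over all genes and 3, 2 and 1 over Hox genes. Depth is 1 of the limits: Hox genes had 24 to 248.2 fragments in a library, and a group listed at 0 may hold up to 3.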
